A study of Mus musculus with 12 samples.

Results

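The 9 genes described here encode surface proteins by which stem and progenitor cells of the mouse mammary gland are marked or sorted: Procr, Cd44, Epcam, Cd24a, Kit, Cd14, Ly6a, Prom1 and Tspan8. They were taken by gene symbol from a table of raw read counts of 25210 genes, and all 9 passed the filter on low counts that left 15316 genes for testing. The counts came from primary mammary organoids, small epithelial structures grown in a gel, of virgin female FVB/N mice aged 8 to 11 weeks. They were kept in minimal medium inside Matrigel, a basement membrane gel that here was low in growth factors. They received the vehicle dimethyl sulfoxide (DMSO), 1, 1.5 or 3 µM of CHIR99021, and RNA was taken at 7 days. CHIR99021 is a GSK3 inhibitor, which keeps β-catenin (CTNNB1) from being degraded and so turns on the WNT pathway. Per the labels, 3 cultures from 3 animals each received all 4 treatments, so each group holds 3 libraries and a culture number (1, 2 or 3) is an animal. The sample titles also tag culture 1 as med, culture 2 as min and culture 3 as max. What these tags stand for was not established here. No genetic change is labelled in any group, and the strain, matrix, medium and time are shared by all groups.

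The RNA was polyadenylated RNA of whole organoid cultures, with no sorting named in the labels, and surface protein was not measured. In such bulk RNA, fewer cells of a type and less RNA per cell cannot be told apart, and this holds for every level below. The 12 libraries held between 10129264 and 24485855 counts each. The members were counted with 58 (Procr) to 31238 (Cd44) reads per library. Levels are given in CPM, the usual unit for a gene's share of a library's counts, after edgeR's TMM scaling of the totals, and the values of a group are listed in the order of cultures 1, 2 and 3.

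The mammary epithelium has an inner luminal layer, which holds milk-forming and hormone-sensing cells and their progenitors, and an outer basal layer, which is contractile and holds cells that can regrow a gland after transplantation. No single protein marks these cells, so sorting combines several. Epcam and Cd24a separate luminal from basal and stromal cells. Kit and Cd14 are used for luminal progenitors, and Ly6a (Sca-1) and Prom1 (CD133) for luminal subsets, Prom1 being best known from hormone-sensing cells. Cd44, Procr and Tspan8 have been used to mark basal cells or stem cell-enriched fractions. Procr has been described as a target of WNT signalling in mammary stem cells, and Cd44 is a known WNT target in the intestine.

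For 6 members a start site was found by symbol in a RefSeq table of mouse promoters (GRCm38.p6), which gave 8 start sites. Cd24a, Ly6a and Cd14 were not matched. The 250 bases before each start were searched on both strands for the binding letters of the WNT pathway's TCF/LEF factors, CTTTGAT and CTTTGAA, and for the core CTTTG that both contain. CTTTGAT or its reverse complement stood in 3.21% and CTTTGAA or its reverse complement in 4.46% of 32851 mouse promoter windows of the same length, and neither stood in any window of the 6 members. The core, on either strand, stood in 48.6% of all windows and in those of Cd44, Procr, Kit, Tspan8 and Epcam, but not in those of Prom1. The windows of Procr, Kit and Prom1 reach into annotated exons and are not printed. The windows of Cd44 and Epcam lie before the gene's start in GENCODE M21. That of Tspan8 lies within the gene as annotated there, which starts at 115816832, and its last bases reach into an exon. The windows of Cd44, Tspan8 and Epcam are shown because they belong to the members whose RNA fell, Cd44 and Tspan8, and to Epcam. Epcam was not called in any comparison between doses. Capitals mark CTTTG or its reverse complement CAAAG, each sequence reads 5′ to 3′ on the gene's strand, and a match is a string of letters, not a measured binding site.
Cd44, chr2:102901666-102901915, minus strand: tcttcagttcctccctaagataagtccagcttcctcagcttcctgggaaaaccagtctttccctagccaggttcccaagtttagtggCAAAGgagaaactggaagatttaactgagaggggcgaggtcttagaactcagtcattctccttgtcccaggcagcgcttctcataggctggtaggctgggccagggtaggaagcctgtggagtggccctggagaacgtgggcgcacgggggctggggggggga
Tspan8, chr10:115817034-115817283, plus strand: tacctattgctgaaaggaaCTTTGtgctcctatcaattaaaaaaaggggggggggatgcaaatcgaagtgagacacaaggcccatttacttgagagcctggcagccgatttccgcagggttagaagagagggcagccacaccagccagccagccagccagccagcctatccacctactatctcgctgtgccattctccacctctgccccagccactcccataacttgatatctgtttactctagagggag
Epcam, chr17:87635729-87635978, plus strand: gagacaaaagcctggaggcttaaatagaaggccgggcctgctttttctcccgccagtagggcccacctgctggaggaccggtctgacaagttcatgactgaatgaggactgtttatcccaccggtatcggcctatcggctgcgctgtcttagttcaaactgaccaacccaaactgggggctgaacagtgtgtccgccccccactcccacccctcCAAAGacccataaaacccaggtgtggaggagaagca

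At 3 µM against DMSO, 6 of the 9 markers changed: Ly6a, Prom1, Procr and Cd24a rose, and Tspan8 and Cd44 fell. Across all genes tested 57.5% were called in this comparison, 29.9% higher and 27.7% lower, so the share of members called was near the background. A call is an adjusted p under 0.05 in edgeR's quasi-likelihood test, with the Benjamini-Hochberg adjustment over 15316 genes. Unless a block is named, comparisons between doses held no culture term, also where libraries or cultures were left out. They did not use the pairing by animal. The changes of the called members spanned 2.39-fold (Cd24a) to 19.3-fold (Tspan8). Kit, Epcam and Cd14 were not called at this dose. The median log2 fold change was 0.37 over the 9 members and -0.03 over all genes. With library size as the scale in place of TMM factors, the all-gene median at 3 µM moved to -0.23 and the higher share of called genes from 51.9% to 38.6%. The same 6 members stayed called, and each of the 9 members kept its direction.

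**Figure D1:**
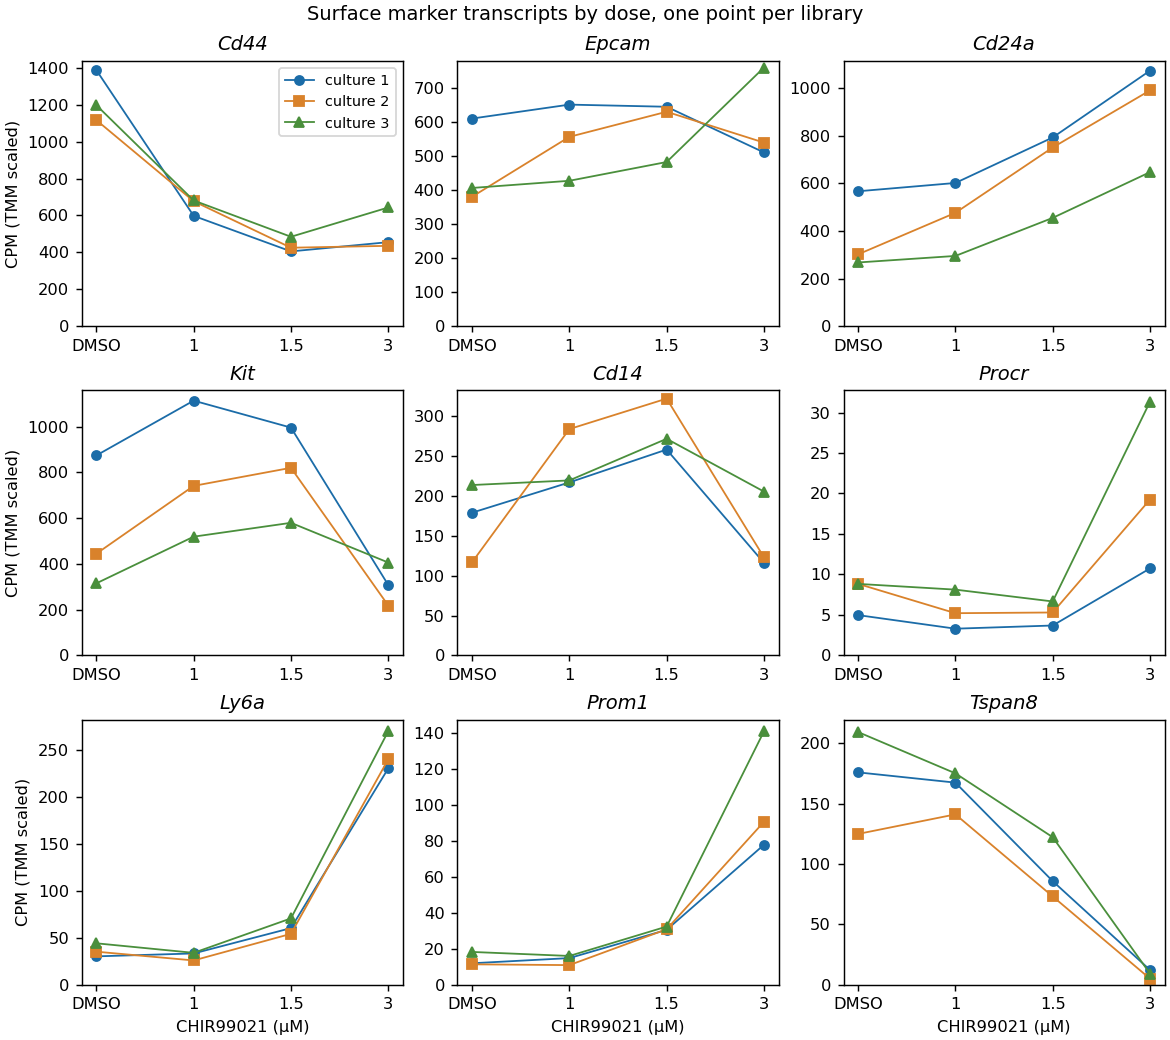
Level of each of the 9 marker genes in CPM (linear axes from 0) in DMSO and at each CHIR99021 dose in µM (doses spaced evenly), with 1 point per library and lines joining the libraries of a culture. Ly6a and Prom1 climb from 1.5 µM, and Tspan8 is lower at 1.5 µM and lowest at 3 µM. Cd44 is already lower at 1 µM. Kit and Cd14 are higher at 1.5 µM than at 3 µM in all 3 cultures.

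Among the adhesion molecules, Cd44 fell, Cd24a rose and Epcam was not called in any of the comparisons between doses. Cd44, the receptor for the matrix polysaccharide hyaluronan (chromosome 2, 102811141 to 102901665, minus strand), stood at 1388, 1117 and 1198 CPM in DMSO and at 598, 677 and 681 CPM with 1 µM. It stood at 405, 425 and 484 CPM with 1.5 µM and at 455, 435 and 643 CPM with 3 µM. Every treated library lay below every DMSO library, and the lowest levels were at 1.5 µM. The log2 fold change at 3 µM was -1.27 ± 0.158 (SE; adjusted p = 9.72e-05), a 2.41-fold decrease. At 1.5 µM the decrease was 2.82-fold (adjusted p = 0.000336). At 1 µM Cd44 was 1.89-fold lower and missed the threshold (adjusted p = 0.0543). It was called there with the culture as a block (0.0118), with DESeq2 (2.89e-06) and without the culture 3 library at 3 µM (0.0151). The upstream sequence printed above has the reverse complement of the TCF/LEF core at 1 place.

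Cd24a, a small glycosylphosphatidylinositol (GPI)-anchored sialoprotein (chromosome 10, 43579169 to 43584262, plus strand), had 567, 302 and 268 CPM in DMSO and 602, 476 and 295 CPM with 1 µM. Its levels were 793, 751 and 455 CPM with 1.5 µM and 1074, 991 and 647 CPM with 3 µM. Culture 3 had the lowest level at every dose, and within each culture the level was higher at each successive dose. The 2.39-fold increase at 3 µM (log2 1.26 ± 0.365 SE) was called with an adjusted p of 0.0138. The call was lost without the DMSO library of culture 2 (0.0579) or 3 (0.0585), without the 3 µM library of culture 1 (0.0514), and without culture 2 in all groups (0.197). With the culture as a block it was called with an adjusted p of 6.25e-05. The block also called the change at 1.5 µM against DMSO, where Cd24a missed the threshold without it (log2 0.81, adjusted p = 0.12 without and 0.00178 with the block).

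Epcam, the epithelial cell adhesion molecule (chromosome 17, 87635979 to 87651106, plus strand), had 610, 380 and 406 CPM in DMSO, and 651, 556 and 427 CPM with 1 µM. With 1.5 µM it had 645, 630 and 482 CPM, and with 3 µM 511, 540 and 760 CPM. The groups overlapped throughout. Within each of the 3 cultures the level was higher than in DMSO at 1 µM (log2 0.09, 0.55 and 0.07) and at 1.5 µM (0.08, 0.73 and 0.25). From DMSO to 3 µM the level was lower in culture 1 and higher in cultures 2 and 3, with log2 differences of -0.26, 0.50 and 0.90. The fitted log2 difference of 0.37 ± 0.234 (SE) was not called (adjusted p = 0.192). It was called without the DMSO library of culture 1 (log2 0.62, adjusted p = 0.0426) and without culture 1 in all groups (log2 0.73, adjusted p = 0.0477).

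The balance of the 2 adhesion molecules that moved was computed per library as Cd24a over Cd44, each in CPM per kilobase of annotated exon. The ratio was 1.07, 0.709 and 0.587 in DMSO and 2.64, 1.85 and 1.14 with 1 µM. It was 5.14, 4.64 and 2.47 with 1.5 µM and 6.20, 5.98 and 2.64 with 3 µM. In each culture it was higher at each successive dose, and the DMSO libraries lay below all treated libraries. The ratio was not tested, and it restates the changes of the 2 genes given above.

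**Figure D2:**
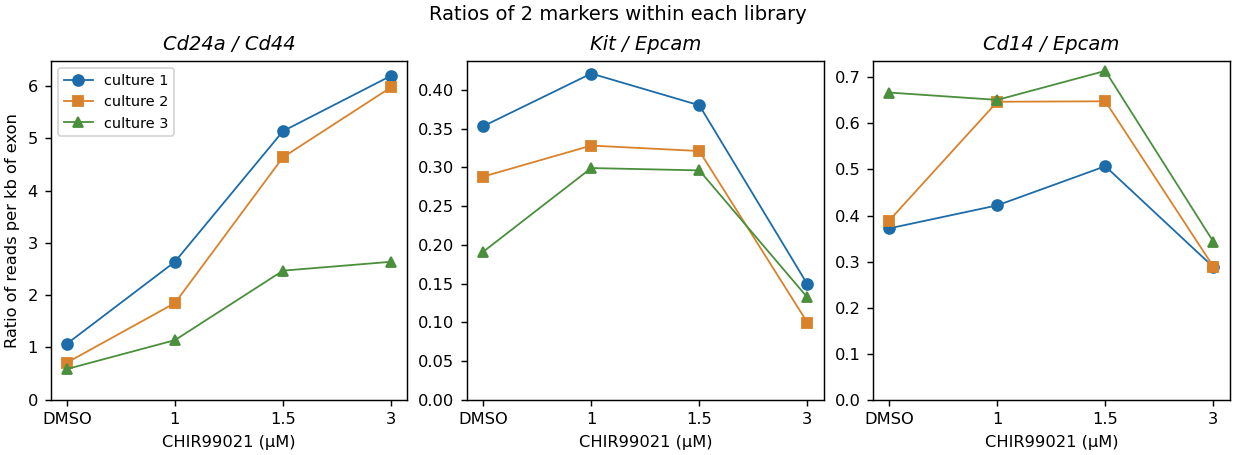
Ratios of 2 marker levels within each library, from CPM per kilobase of exon (linear axes from 0), in DMSO and at each CHIR99021 dose in µM, with lines joining the libraries of a culture. Cd24a over Cd44 climbs with dose in all 3 cultures, and Kit over Epcam and Cd14 over Epcam are lowest at 3 µM in all 3 cultures.

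The 2 luminal progenitor receptors, Kit and Cd14, were higher at 1 and 1.5 µM than in DMSO in all 3 cultures and then fell between 1.5 and 3 µM. Epcam and Cd24a were also higher at 1 and 1.5 µM in all 3 cultures, so that part of the pattern was not particular to Kit and Cd14. Kit, the receptor tyrosine kinase for stem cell factor (chromosome 5, 75574916 to 75656722, plus strand), had 874, 445 and 315 CPM in DMSO and 1114, 741 and 519 CPM with 1 µM. It had 996, 820 and 580 CPM with 1.5 µM and 308, 218 and 406 CPM with 3 µM. The 3 µM libraries lay below all 1.5 µM libraries and overlapped those of DMSO. The step from 1.5 to 3 µM was -1.36 ± 0.415 (log2, SE; adjusted p = 0.0332), or 2.57-fold. This call was lost without the culture 1 library at 1.5 µM (0.0979) or 3 µM (0.0891), without the culture 2 library at 1.5 µM (0.0779) or 3 µM (0.123), without culture 1 (0.102) or 2 (0.311) in all groups, and with no low-count filter (0.0599). With the culture as a block and all libraries, the step was called with an adjusted p of 0.0112. The gains at the lower doses were not called (log2 0.54 and 0.55, adjusted p = 0.675 and 0.34).

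From DMSO to 3 µM, Kit was lower in cultures 1 and 2 (log2 -1.51 and -1.03) and higher in culture 3 (0.37). The fitted log2 difference of -0.81 ± 0.41 (SE) was not called (adjusted p = 0.114). It was called without the DMSO library of culture 3 (log2 -1.12, adjusted p = 0.043) and without culture 3 in all groups (log2 -1.34, adjusted p = 0.0227). Set over Epcam per kilobase of exon, which compares Kit with an epithelial gene of the same library, Kit had ratios of 0.353, 0.288 and 0.191 in DMSO. The ratios with 3 µM were 0.149, 0.0996 and 0.132, below those of DMSO in all 3 cultures. At 1.5 µM the ratios were 0.380, 0.321 and 0.296. In culture 3 Kit itself was higher at 3 µM than in DMSO (406 against 315 CPM). The lower ratio there went with the larger rise of Epcam, from 406 to 760 CPM. The ratios were not tested.

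Cd14, a GPI-anchored co-receptor for bacterial lipopolysaccharide (chromosome 18, 36725074 to 36726736, minus strand), had 179, 117 and 214 CPM in DMSO and 217, 284 and 220 CPM with 1 µM. Its levels were 258, 322 and 272 CPM with 1.5 µM and 116, 123 and 206 CPM with 3 µM. All libraries at 1 and 1.5 µM lay above all DMSO libraries, and those at 3 µM overlapped DMSO. At 1 µM the margin was narrow, 217 CPM in the lowest library against 214 CPM in the highest of DMSO. In culture 3 the log2 difference at 1 µM was 0.04. The fitted log2 difference of 0.50 at 1 µM was not called (adjusted p = 0.502). The step from 1.5 to 3 µM was -0.94 ± 0.26 (log2, SE; adjusted p = 0.0227). The call was lost without the 3 µM library of culture 1 (0.0793) or 2 (0.0861), without the 1.5 µM library of culture 2 (0.0753), and without culture 1 (0.174) or 2 (0.181) in all groups. With the culture as a block and all libraries, this step was called with an adjusted p of 0.0117. The difference of 0.74 at 1.5 µM against DMSO missed the threshold (adjusted p = 0.0577). It was called with the culture as a block (0.0324), with DESeq2 (0.0272), without the culture 3 library of DMSO (0.0495) or of 3 µM (0.0255), and without culture 3 in all groups (0.0233). At 3 µM against DMSO the difference was -0.20 ± 0.258 (adjusted p = 0.534).

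Procr, the endothelial receptor for activated protein C (chromosome 2, 155751117 to 155755471, plus strand), was a low-level gene that rose at 3 µM alone among the doses tested. It had 4.98, 8.84 and 8.83 CPM in DMSO, 3.30, 5.21 and 8.12 CPM with 1 µM, and 3.69, 5.30 and 6.66 CPM with 1.5 µM. With 3 µM it had 10.7, 19.2 and 31.3 CPM, above all other libraries. The increase against DMSO was 2.72-fold (log2 1.44 ± 0.444 SE, adjusted p = 0.018), and against 1.5 µM it was 3.91-fold (adjusted p = 0.00995). The first call was lost without the DMSO library of culture 1 (0.0616), the 3 µM library of culture 3 (0.0753), culture 2 (0.137) or culture 3 (0.0559), and the second without culture 2 (0.171). With the culture as a block and all libraries, the adjusted p was 0.000103 against DMSO and 0.000106 against 1.5 µM. At 1 and 1.5 µM Procr was lower than DMSO in all 3 cultures. At 1.5 µM this difference of -0.53 was called with the culture as a block (adjusted p = 0.0345) and not without it (0.405).

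Ly6a and Prom1 had the largest increases of the 9 members at 3 µM, and both began to rise at 1.5 µM. Ly6a, a GPI-anchored protein of the Ly6 family (chromosome 15, 74994877 to 74998031, minus strand), had 30.2, 35.1 and 44.1 CPM in DMSO and 33.3, 25.8 and 33.9 CPM with 1 µM. It had 60.2, 54.1 and 70.6 CPM with 1.5 µM and 230, 240 and 270 CPM with 3 µM. Each group from 1.5 µM on lay wholly above the one before. The increase was 6.76-fold at 3 µM (log2 2.76 ± 0.169 SE, adjusted p = 1.99e-06) and 0.76 on the log2 scale at 1.5 µM (adjusted p = 0.00715). The increase at 1.5 µM was not called without culture 1 (0.0881) or culture 2 (0.0892) in all groups. Ly6a has close paralogs in the genome, and how the counting treated reads shared with them is not given in the sources used here, so its level carries that uncertainty.

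Prom1, the pentaspan membrane protein prominin (chromosome 5, 43993625 to 44102032, minus strand), had 11.9, 11.4 and 18.3 CPM in DMSO and 14.8, 10.9 and 16.0 CPM with 1 µM. It had 30.6, 30.9 and 32.4 CPM with 1.5 µM and 77.9, 90.7 and 141 CPM with 3 µM. At 3 µM it was 7.43-fold higher than in DMSO (log2 2.89 ± 0.263 SE, adjusted p = 1.54e-05). At 1.5 µM the log2 difference was 1.17 (adjusted p = 0.00762), a call lost without culture 1 (0.0783) or culture 2 (0.139) in all groups. Exons of Prom1 and of Gm16401, on the opposite strand, overlap. Gm42716 overlaps the gene on the same strand but none of its exons. The kit was stranded per the labels, but whether counting used the strand is not given in the sources used here. Reads of Prom1 and Gm16401 may therefore not be told apart.

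Tspan8, a tetraspanin (chromosome 10, 115817284 to 115849893, plus strand), fell further than any of the other 8 members. It had 176, 125 and 209 CPM in DMSO, 167, 141 and 175 CPM with 1 µM, 85.8, 73.2 and 122 CPM with 1.5 µM, and 12.2, 5.0 and 9.25 CPM with 3 µM. The 1 µM libraries overlapped those of DMSO, the 1.5 µM libraries lay below them, and the 3 µM libraries lay below all others. The decrease at 3 µM was 19.3-fold (log2 -4.27 ± 0.347 SE, adjusted p = 8.53e-06). The lower level at 1.5 µM (log2 -0.86) missed the threshold (adjusted p = 0.0571). It was called with the culture as a block (0.00395), with DESeq2 (0.017), and without the 1.5 µM library of culture 3 (0.0366) or the 3 µM library of culture 1 (0.0386) or 2 (0.0233). An exon of 4930422I22Rik lies on the opposite strand within Tspan8, with the same uncertainty as for Prom1.

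Set side by side, the members called in the fit without a culture term differed by dose. A member called at some doses only was not thereby shown to differ between doses. At 1 µM none of the 9 members was called (background 0.242%). At an unadjusted p under 0.05 there was 1 member, Cd44, and 1798 genes in all, and DESeq2 called 1 member (background 3.51%). At 1.5 µM Cd44, Ly6a and Prom1 were called against DMSO (3 of 9, background 27.3%, with 15.4% higher and 11.8% lower). With the culture as a block this count was 7, adding Tspan8, Cd24a, Cd14 and Procr, against a background of 46.7% in that fit. DESeq2 called 5 members (background 33%). Between 1 and 1.5 µM Ly6a (log2 0.99, adjusted p = 0.0106) and Prom1 (log2 1.17, adjusted p = 0.0282) rose (2 of 9, background 5.43%, with 4.43% higher and 0.992% lower). Ly6a lost this call without the 1 µM library of culture 2 (0.0543), and Prom1 lost it without any single library of either dose (adjusted p from 0.0639 to 0.118). Both also lost it without culture 1 or 2 in all groups (0.159 and 0.306 for Ly6a, 0.218 and 0.386 for Prom1). The block gave 5 members (background 21.9%), adding falls of Tspan8 (0.0131) and Cd44 (0.0175) and a rise of Cd24a (0.0257). Between 1.5 and 3 µM, 6 of 9 were called (background 29.7%, with 17% higher and 12.7% lower): Ly6a (log2 2.0, adjusted p = 8.82e-05), Prom1 (1.72, 0.00117) and Procr (1.97) rose, and Tspan8 (-3.41, 0.000219), Kit and Cd14 fell. Prom1 was not called in this step without culture 2 in all groups (0.0551). The block, with a background of 46.7% in this step, added Cd24a (log2 0.44, adjusted p = 0.379 without and 0.032 with it). With library size as the scale, the all-gene median of this step moved to -0.28 and the higher share of called genes from 57.2% to 21.4%, while 6 members were called as before.

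**Figure D3:**
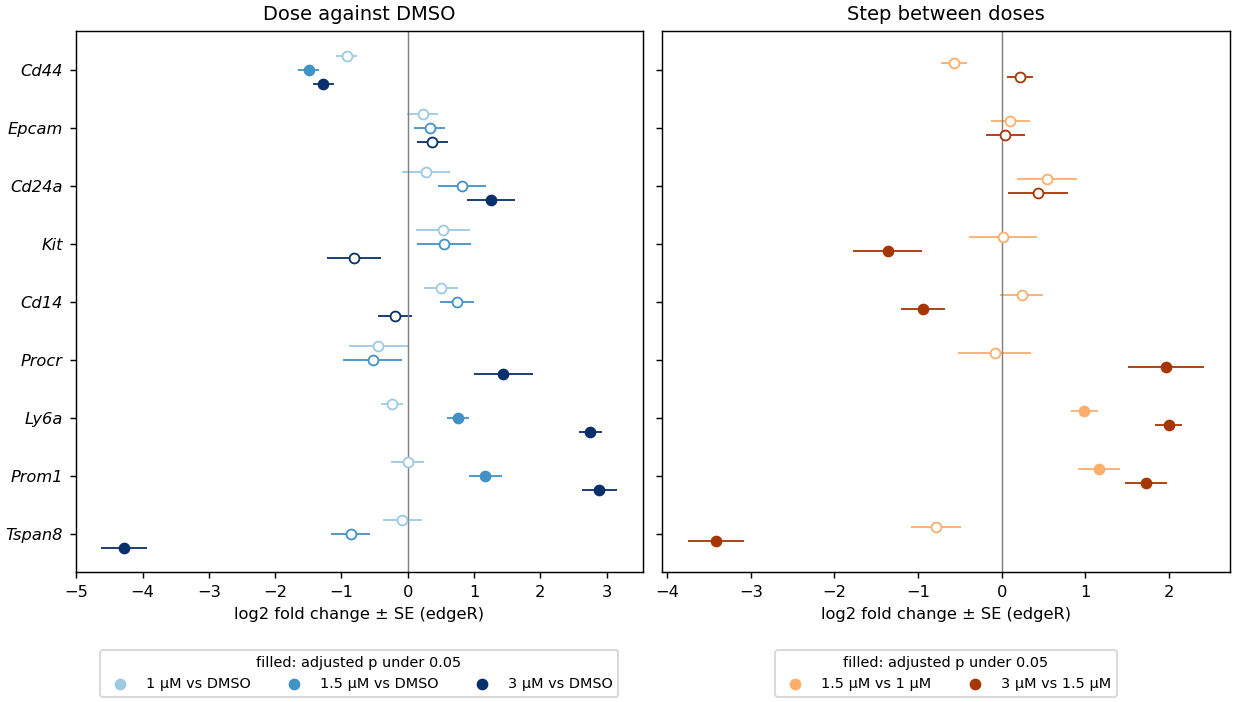
Fitted log2 fold change of each member with its standard error (horizontal bar), for each dose against DMSO (left) and between neighbouring doses (right). Filled points have an adjusted p under 0.05: none at 1 µM, Cd44, Ly6a and Prom1 at 1.5 µM, and 6 members at 3 µM.

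Counted by libraries, 2 of 9 members did not overlap with DMSO at 1 µM (19.4% of all genes), 5 at 1.5 µM (45.6%) and 6 at 3 µM (60.8%). Those at 1 µM were Cd44, below DMSO, and Cd14, above it. At 1.5 µM Tspan8 was also below and Ly6a and Prom1 also above, and at 3 µM the 6 were the called members.

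With dose fitted as a slope over all 12 libraries, 6 of 9 members were called (background 58.2%, with 30.2% higher and 28% lower). Prom1 changed by 1.02 and Ly6a by 0.97 on the log2 scale per µM (adjusted p = 2.34e-05 and 3.98e-05). Procr (0.52, adjusted p = 0.0193) and Cd24a (0.43, adjusted p = 0.00543) had smaller positive slopes. Cd44 (-0.41, adjusted p = 0.00369) and Tspan8 (-1.51, adjusted p = 0.000411) had negative ones. The slope of Procr was not called without the 3 µM library of culture 2 (0.0586) or 3 (0.121) or without culture 2 (0.0785) or 3 (0.0792) in all groups, and that of Cd24a without culture 2 (0.0918). Kit, which was higher at the middle doses and lower at 3 µM, had a slope of -0.32 that was not called (adjusted p = 0.188). Without the DMSO library of culture 3 it was called (0.0435). Epcam (0.12, adjusted p = 0.176) was called without culture 1 in all groups (0.025).

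The order of the members' levels also differed with dose. The length used was that of all annotated exons of a gene together, whichever transcripts were made, so ranks between genes depend on the annotation. In DMSO the order per kilobase of exon was Epcam (212 CPM per kb), Cd44 (182), Cd24a (147), Tspan8 (99.9), Cd14 (98.1), Kit (61.1), Ly6a (30.3), Procr (3.72) and Prom1 (1.93). Neighbours in this order overlapped over the 3 libraries except Ly6a, which lay above Procr. At 3 µM Cd24a (350 CPM per kb) stood first and Epcam (275) second, with overlapping ranges. Ly6a (205) came next, below Epcam and above Cd14 (85.6) in every library, and Cd44 (75.5) stood below Cd14 with overlap. Kit (34.9) lay below Cd44 and above Prom1 in every library, while at the low end Procr (10.1) overlapped both Prom1 (14.4) above it and Tspan8 (5.19) below it. Tspan8 had moved from the middle to the last place.

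**Figure D4:**
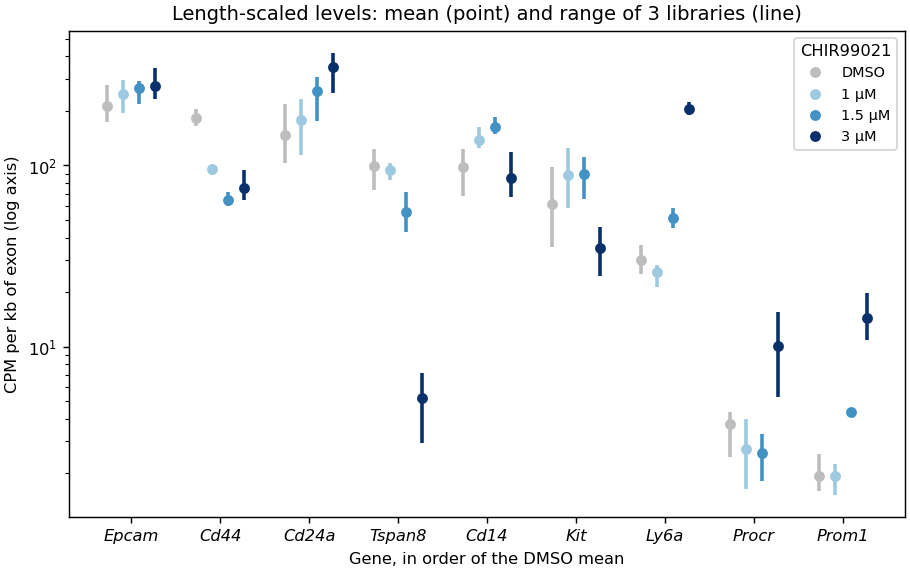
Level of each member in CPM per kilobase of exon (log axis) in each dose group, with the mean as a point and the range over 3 libraries as a line, the genes being in the order of their DMSO means. Tspan8 falls from the middle of the order to its end at 3 µM, and Ly6a rises to the place below Epcam.

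The cultures differed in some members at equal treatment. With the dose group held, 4 of 9 members differed between the 3 cultures (background 28.8%): Procr (adjusted p = 0.00244), Cd24a (0.00312), Tspan8 (0.0317) and Prom1 (0.0478). Procr was lowest in culture 1 at every dose, and Cd24a was lowest in culture 3. The calls of Procr and Cd24a held when any 1 library was left out, while Procr lost its call without culture 1 in all groups (0.16) and Cd24a without culture 3 (0.116). Those of Tspan8 and Prom1 were lost in many such fits. With dose as a slope in place of the group means, Cd24a alone of the 9 was called. Whether the slope on dose itself differed between cultures was tested after the values of Epcam and Kit had been seen. No member and no gene of the 15316 was called by edgeR (background 0%). Epcam, with an adjusted p of 0.588, was the 1 member at an unadjusted p under 0.05, as were 1230 genes in all. DESeq2 called 231 genes and none of the members. The adjusted p of Kit was 0.87.

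The genes whose levels ran most alike with each member were sought among 12427 genes by the Pearson correlation of log2 CPM over the 12 libraries, which share cultures and treatments. These values describe likeness only. Ly6a ran most like Ybx3 (r = 0.989) and Hmga1 (0.986), and Prom1 most like Hmga1 (0.991) and Duoxa1 (0.986). Tspan8 ran with 4933421O10Rik and Pdrg1 (both 0.988). The nearest genes to Cd24a were Cdc42se1 (0.982) and Golph3 (0.980), those to Cd44 were Cd81 (0.955) and Pdzd2 (0.950), and those to Epcam were Osbpl3 (0.967) and Bach1 (0.961). For Kit they were Samd5 (0.965) and BC006965 (0.955), for Procr Pgm3 (0.966) and Morc4 (0.963), and for Cd14, with the lowest values, Zfp12 (0.928) and Clk2 (0.919). Among the members, the pair Ly6a and Prom1 ran most alike (0.98), Ly6a and Tspan8 ran most opposed (-0.95), and Kit ran with Cd14 (0.65) and against Procr (-0.82).

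Of 19 ligands, partners and relatives of the members, 11 were called at 3 µM, 7 higher and 4 lower (background 57.5%), with a median log2 fold change of 0.45. Leaving out 1 library gave 9 to 12, and the block gave 14 (background 68.9%). Kitl, which encodes the ligand of Kit, had 126, 140 and 176 CPM in DMSO and 50.1, 49.7 and 32.6 CPM with 3 µM, a 3.33-fold decrease (adjusted p = 0.000849). Tlr4, the signalling partner of Cd14, fell 1.92-fold (adjusted p = 0.000147), while Ly96, which binds Tlr4, was not called (log2 -0.33, adjusted p = 0.31). Of the hyaluronan synthases that make the ligand of Cd44, Has3 rose from 3.91, 1.93 and 3.5 CPM to 205, 142 and 46.0 CPM (adjusted p = 2.48e-05). Has2 rose 2.61-fold (adjusted p = 0.00968), and Has1 was at 1.86 CPM or less in every library and not called. F2r, the thrombin receptor through which activated protein C bound to Procr can signal, fell 3.72-fold (adjusted p = 0.0141). Prom2, the relative of Prom1, rose 2.77-fold (adjusted p = 0.000837), and Ly6d, a relative of Ly6a, rose 11.0-fold (adjusted p = 0.000292). Cldn7, a claudin that binds Epcam, rose 1.69-fold (adjusted p = 0.0485), and the call was lost in 8 of the 12 fits that left out 1 library.

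Among 17 other surface proteins used to sort or mark mammary epithelial cells, 10 were called at 3 µM, 2 higher and 8 lower (background 57.5%), with a median log2 fold change of -0.76. The integrin subunit Itga2 rose 3.93-fold (adjusted p = 0.000641). Mme (CD10), a peptidase of basal cells, fell 32.7-fold (adjusted p = 0.000608). Lgr5, an R-spondin receptor and stem cell marker, had 232, 175 and 155 CPM in DMSO and 0.471, 0.257 and 0.138 CPM with 3 µM, where its counts were 2 to 6 reads (log2 -9.34, adjusted p = 8.92e-07).

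Genes that mark the cell types of the cultures moved beside the members. Of all genes tested, 57.5% were called at 3 µM against DMSO, and 68.9% with the block. The called shares of the luminal progenitor, hormone-sensing and immune lists below were near this background. The epithelial genes Krt8, Krt18, Krt19, Cdh1 and Cldn4 were present in every library and summed to 2361 to 3908 CPM in DMSO and 1978 to 2083 CPM at 3 µM, so the markers of the labelled epithelium were there. Of these 5 genes 4 were called at 3 µM, with Cldn4 higher (5.62-fold) and Krt19 (4.31-fold), Krt8 (1.68-fold) and 1 more lower. All 7 squamous differentiation genes rose, their sum going from 67.5, 27.9 and 31.6 CPM to 25788, 22822 and 5897 CPM. All 7 basal genes were called: Krt5 (10.7-fold), Krt14 (14.3-fold) and 1 more higher, and 4 contractile genes, among them Oxtr (log2 -7.10) and Cnn1 (-5.54), lower. Of 8 luminal progenitor and alveolar genes, Ltf (log2 4.56) and Ehf (1.00) rose and Hey1 (-3.08), Mfge8 (-2.33) and 1 more fell. Of 7 genes of the hormone-sensing cells in which Prom1 is best known, Areg (4.49) and Wnt4 (3.52) rose, and Pgr (-3.28) and Esr1 (-1.44) fell.

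Genes of other cell types were present too. The summed level of 7 fibroblast genes was 1624, 7372 and 20508 CPM in DMSO and 175, 972 and 4569 CPM at 3 µM, lower at 3 µM in each culture. The collagen genes Col1a1, Col1a2 and Col3a1 made up most of this sum, and Dcn went the other way in culture 3, from 625 to 1071 CPM. For this list edgeR called 0 of the 7, DESeq2 2 and the block 6. All 7 differed between cultures at equal treatment, and their sum was highest in culture 3 at every dose. The sum of the measured immune genes went from 246, 1280 and 2461 CPM to 38.5, 106 and 117 CPM, with 3 of 5 tested lower, among them Ptprc and Lyz2 (5 called with the block), and with Cd3e at 3 counts or fewer in every library. All 5 endothelial genes fell, their sum going from 243, 503 and 416 CPM to 27.1, 59.4 and 86.6 CPM. Cd44, Procr, Ly6a, Cd14 and Kit are also made by some of these cell types, and the part of these shifts in the members' levels was not tested. Mast cells and melanocytes are other cell types that make Kit. Their 8 listed genes, of which 4 passed the filter, summed to at most 8.51 CPM in any library. Fcer1a and Tyrp1 were at 3 counts or fewer throughout. The part of these cells in the level of Kit was not tested.

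**Figure D5:**
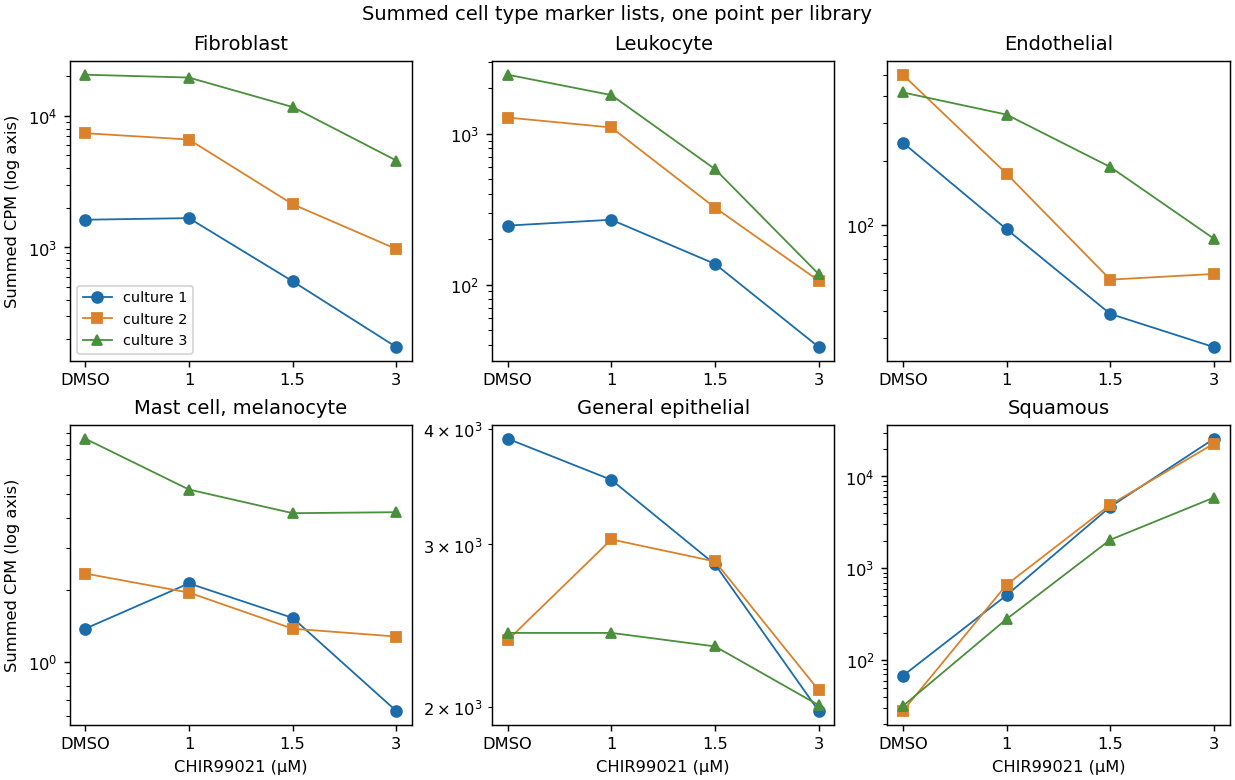
Summed CPM (log axes that differ between panels) of 6 cell type marker lists in each library, in DMSO and at each CHIR99021 dose in µM, with lines joining the libraries of a culture. Squamous genes climb with dose, fibroblast, leukocyte (immune) and endothelial genes are lower at 3 µM than in DMSO in all 3 cultures, and fibroblast genes are highest in culture 3.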

How the data were processed

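RNA of 12 organoid libraries was analysed from the table of raw read counts per gene that the authors deposited. The authors' second table, of log2 values, equals log2 of the counts scaled to 1 common library total, plus 1 (0 values differed at a tolerance of 1e-06) and was used for this check only. Per the submitters' processing notes, the tools TopHat2 2.1, Bowtie 1.1.0, HTSeq and DESeq2 and the build GRCm38/mm10 were named, without their roles. Whether counting used the strand is not given in the sources used here.

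Counts were tested with edgeR 4.0.16 (R 4.3.3), using a low-count filter, TMM factors, group means over all 12 libraries and the two-sided quasi-likelihood test. P-values were adjusted by the Benjamini-Hochberg method over 15316 genes at a threshold of 0.05. The SE of a log2 fold change was its size over the square root of F. Same-numbered libraries come from 1 animal. Their deviations from the group means correlated (18 pairs, 0.177 to 0.840), while 36 pairs of different numbers had a median of -0.212. The replicate block was an alternative, beside RLE factors, library size alone, no filter, DESeq2 1.42.0 and leaving out each library. For the comparisons between doses and the slope, only the block fit held a culture term. The other settings, and all fits that left out a library or culture, kept differences between animals in their spread. Leaving out each culture and the test of slope by culture were added after the data were seen. The scripts were tested on simulated data. Depth ran from 10129264 to 24485855 counts, and counting error weighs most on Procr, Prom1 and Tspan8, the members with the lowest counts.

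The members and lists were chosen with earlier results of these data known. All 9 members are named. Of each other list, up to 2 called increases and 2 called decreases with the largest change at 3 µM are named, with partners set beside a member, and for each member the 2 genes most alike in log2 CPM (prior count 2) among those with a mean of at least 50 counts. A gene that this rule names is not reported here. Exon lengths and overlaps come from GENCODE M21, where 24902 gene identifiers matched.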

Additional observations from a re-analysis of the deposited data

How the results depend on the processing

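Each of the 6 members called at 3 µM against DMSO kept its call and direction under RLE factors, library size alone, no filter, the replicate block and DESeq2. The replicate block raised the members called from 0 to 1 at 1 µM, from 3 to 7 at 1.5 µM and from 2 to 5 between 1 and 1.5 µM. The genes called rose with the block from 37 to 859, from 4177 to 7147 and from 831 to 3351 in the same comparisons, and from 4544 to 7149 between 1.5 and 3 µM. edgeR's common coefficient of variation was 0.305 without the block and 0.156 with it, and the block ended no call of a member. At 1 µM, RLE factors, no filter and DESeq2 each gave 1 member, and DESeq2 gave 485 genes. At 1.5 µM DESeq2 gave 5 members and 5045 genes. Between 1 and 1.5 µM DESeq2 gave 1646 genes and no filter 494. With dose as a slope, the test between cultures gave 1 member and 2058 genes in place of 4 and 4418. The slope by culture gave 2 genes with no filter and 231 with DESeq2 in place of 0.

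Leaving out 1 library gave 0 to 1 members and 3 to 50 genes at 1 µM, 3 to 4 members and 2462 to 5085 genes at 1.5 µM, and 5 to 6 members at 3 µM. It gave 0 to 3 members and 135 to 1508 genes between 1 and 1.5 µM, 4 to 6 members and 2962 to 5682 genes between 1.5 and 3 µM, 5 to 7 members for the slope, and 2 to 5 members and 2658 to 5860 genes between cultures.

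Without culture 1 in all groups, 1 member and 1539 genes were called at 1.5 µM, 3 genes at 1 µM, 0 members and 0 genes between 1 and 1.5 µM, 1171 genes between 1.5 and 3 µM, and 2 members and 1152 genes between cultures. Without culture 2 these were 1 member and 457 genes at 1.5 µM, 0 genes at 1 µM, 0 members and 0 genes between 1 and 1.5 µM, 2 members and 345 genes between 1.5 and 3 µM, and 2 members and 2741 genes between cultures, with 4769 genes at 3 µM and 5778 for the slope. Without culture 3 there were 1 member and 119 genes at 1 µM and 2 members and 2402 genes between cultures. These fits hold fewer libraries; the cause of the other shifts was not tested.

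Differences that were not called changed sign. Between 1.5 and 3 µM, Cd44 went from 0.22 to -0.0406 and Epcam from 0.04 to -0.225 (log2) with library size alone, and Epcam to -0.00705 with no filter. Between 1 and 1.5 µM, Kit went from 0.01 to -0.011 with RLE factors and with DESeq2. With 1 library left out, the ranges were -0.349 to 0.295 for Procr, -0.0431 to 0.253 for Epcam and -0.215 to 0.342 for Kit between 1 and 1.5 µM. They were -0.15 to 0.156 for Epcam between 1.5 and 3 µM, -0.125 to 0.227 for Prom1 and -0.266 to 0.0733 for Tspan8 at 1 µM, and -0.2 to 0.0114 for the slope of Cd14. Without culture 3, Procr (0.0885) and Kit (-0.0314) between 1 and 1.5 µM, Epcam (-0.301) between 1.5 and 3 µM, Tspan8 (0.0459) at 1 µM and Has1 (-0.362) at 3 µM had the other sign, as had Kit (-0.0516) without culture 2 and Prom1 at 1 µM (-0.147) without culture 1. Depth limits Has1, at 3 to 27 counts per library, and Lgr5 at 3 µM, while the members had 58 counts or more.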
